A study of Mus musculus with 35 samples.

Results

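Spinal cord microglia of rNLS8 mice in early disease, 2 weeks after withdrawal of doxycycline, were compared with microglia of wild-type (WT) mice taken 2 weeks after the same diet change. The libraries were chosen by their labels: 7 were labelled early disease and 4 WT at that time point, which makes 11 of the 35 libraries of the series. rNLS8 mice carry 2 transgenes, a tetracycline transactivator driven by the neurofilament heavy chain (NEFH) promoter and a human TDP-43 without its nuclear localization signal, and doxycycline in the diet keeps the second one silent. The early disease mice were labelled (+/+) and the WT mice (-/-) for genotype. Both groups came from the mixed C57BL/6J X C3HeJ F1 background, both had been fed doxycycline up to an age of 8 to 12 weeks, and both had then been without it for 2 weeks. The promoter is neuronal, so microglia meet the transgene product through the neurons around them. The cells had been sorted on CD11b and CD45 from whole spinal cord, each library is labelled as one mouse, and the mixed background leaves single mice free to differ in their alleles.

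Microglia are the resident macrophages of the central nervous system. At rest they depend on CSF1 receptor and TGF-beta signalling and express a homeostatic set of genes that includes P2ry12 and Tmem119. In mouse models of neurodegeneration they can lower this set and turn on lipid, lysosomal and chemokine genes such as Apoe, Spp1 and Axl, a state called disease-associated microglia, and they can also divide. The comparison asks which of these programmes already differed 2 weeks after the start of transgene expression.

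Depth was similar in the groups, with 17.8 ± 1.61 M estimated counts in early disease libraries and 16.6 ± 0.618 M in WT libraries (SD, n = 7 and 4). The number of genes detected was 16239 ± 272 in early disease and 15930 ± 295 in WT libraries, and the mitochondrial share of counts was 0.577 ± 0.101% in early disease and 0.575 ± 0.139% in WT libraries. None of 5 library measures separated the groups (exact permutation tests, two-sided, Benjamini-Hochberg adjusted p of 0.313 or more; the smallest p this design allows is 0.00606). Control11 stood apart as a single library. Its share of TPM outside the deposited genes was 11.4%, and the next highest was 7.44% in Control12. The share of its counts in the most abundant genes was 32.96%, and the next highest was 29.14% in Control10. It also had the fewest genes detected of the 11 libraries, 15598. The part of these measures in the differences below was not tested. Xist and Ddx3y counts fitted the labelled sex in all 11 libraries, of which 3 early disease and 2 WT libraries came from males. The dates did not match between groups: by the code in front of each sample name, all 4 WT libraries have 1019, while of the early disease libraries 2 have 1019 (EarlyDisease1 and 3), 3 have 1102 (EarlyDisease4, 5 and 6) and 2 have 1130 (EarlyDisease7 and 8). For the libraries of 1102 and 1130, date and disease cannot be told apart, and values within 1019 are therefore given beside the main ones.

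The sorted cells carried the microglial genes in both groups. Itgam, which encodes CD11b, stood at 1435 to 1753 CPM (counts scaled to a common library size) in early disease libraries, with a median of 1525, and at 2234, 1120, 1586 and 1736 CPM in WT libraries. Ptprc, which encodes CD45, stood at 312 to 498 CPM in early disease, with a median of 409, and at 474, 423, 472 and 419 CPM in WT. Of 10 T and NK cell markers, Cd3e, Cd3g, Gzma, Gzmb and Trac were at 0 in all 11 libraries, and the list summed to 0 to 0.329 CPM in early disease and 0.0562 to 0.688 CPM in WT. Of 7 B cell markers, 3 were at 0 in all 11 libraries, among them Pax5 and Igkc, and the list summed to 292 to 469 CPM in early disease and 299 to 520 CPM in WT. That sum came mainly from Ighm, the heavy chain of IgM, at a mean of 363 CPM in early disease and 371 CPM in WT, and Cd79b, at 22.9 and 30.0 CPM, and its part in other differences was not tested. Oligodendrocyte markers were higher still. The 9 listed genes summed to 1632 to 2439 CPM in early disease and 1711 to 3418 CPM in WT, highest in Control11. Among them, Cldn11 was at 0 in all 11 libraries. Of 8 tested, 0 were called, with a median difference of 0.08 log2, and their part in other differences was not tested. Mouse Tardbp, the endogenous gene for TDP-43, was at 42.3 to 58.5 CPM in early disease, with a median of 48.6, and at 35.6, 70.4, 67.1 and 49.4 CPM in WT, and these values say nothing of the transgene in neurons.

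No gene passed the test at an adjusted p under 0.05. Of 16151 genes tested with edgeR's quasi-likelihood test, 0 were called (0.0%), and 536 had an unadjusted p under 0.05 (3.32%), with 262 of them higher (1.62%) and 274 lower (1.7%) in early disease. DESeq2 called 5 genes on the same counts, all higher in early disease: Rn7s1, Chaf1b, Rpl15-ps3, Slc6a11 and Gm10825, the last 3 of which were 0 in all 4 WT libraries and at 0 in 3 or more of the early disease libraries. The median log2 difference over all genes tested was 0.00. In 92 genes (0.57%) the CPM values of the groups did not overlap, 49 of them higher (0.303%) and 43 lower (0.266%) in early disease. Random order of 7 and 4 values leaves no overlap with a probability of 0.00606, which is close to this share. A p that misses the threshold does not show that a gene was alike in both groups, so the precision matters here. The 95% interval of the difference lay within 1 log2 unit of 0, a 2-fold change either way, for 8921 genes (55.2%). That share was 97.3% of the 1665 genes with a mean of at least 100 CPM, 93.1% of genes at 10 to 100 CPM, 33.4% at 1 to 10 CPM and 0.484% below 1 CPM. For abundant microglial genes a 2-fold difference therefore lay outside the interval almost everywhere, while for genes with few counts it was not resolved at this depth and number of mice.

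The homeostatic genes were at close to WT levels. Of 30 listed genes, all 30 were tested, 0 were called and 1 had an unadjusted p under 0.05. The median difference was -0.14 log2, beside 0.00 over all genes. Below 0 were 22 of the 30 differences, beside 7958 of 16151 over all genes. The intervals of 26 of the 30 lay within 1 log2 unit of 0. Tmem119, a microglial membrane protein used to tell these cells from other macrophages, ranged over 5703 to 7562 CPM in early disease libraries, with a median of 6576, and was at 6995, 8054, 6766 and 7942 CPM in WT libraries. Its groups overlapped, with a log2 difference of -0.21 ± 0.12 (SE; 95% interval -0.45 to 0.03; edgeR adjusted p = 1). P2ry12, the purinergic receptor that steers microglial processes to ATP, ranged over 5688 to 9269 CPM in early disease, with a median of 7305, and was at 9244, 10916, 7494 and 6177 CPM in WT, a difference of -0.21 log2 (95% interval -0.63 to 0.20). Cx3cr1, the fractalkine receptor, differed by -0.07 (95% interval -0.50 to 0.36). The member with the smallest unadjusted p among those below WT was Siglech, a sialic acid-binding lectin of microglia, at 1437 to 2065 CPM in early disease, with a median of 1638, and at 2343, 2887, 1662 and 1717 CPM in WT. Its difference was -0.29 ± 0.12 log2 (edgeR adjusted p = 1), and both male WT libraries, Controls 10 and 11, lay above all others. Among members above WT the smallest unadjusted p belonged to Mef2a, a transcription factor of the microglial enhancer programme, with a difference of 0.24 (95% interval -0.03 to 0.51). Control11 weighed on this programme: without it the differences were -0.05 log2 for P2ry12 and -0.15 for Siglech, and the list median was -0.07.

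No disease-associated gene was called, and Csf1 came nearest. Of 29 tested members 0 were called, and 1 had an unadjusted p under 0.05 on each side. The intervals of only 13 of the 29 lay within 1 log2 unit of 0. Their median difference was -0.09 log2 over the 29. The sign of this median was not stable: it was 0.24 within date code 1019, 0.18 with the date code as a term over the 11 libraries, and 0.04 without Control11. Csf1 encodes the colony stimulating factor that binds the CSF1 receptor and maintains microglia and drives their division. Its gene (ENSMUSG00000014599.8) had 47.8, 72.7, 47.4, 29.1, 24.7, 29.9 and 30.0 CPM in EarlyDisease1, 3, 4, 5, 6, 7 and 8, and 23.1, 13.8, 22.3 and 36 CPM in Controls 10 to 13. The highest 3 values were all in early disease, and the other 4 early disease libraries lay inside the WT range. The difference was 0.75 ± 0.30 log2 (SE; 95% interval 0.13 to 1.37), and its edgeR adjusted p was 1. Within date code 1019, EarlyDisease1 and 3 stand against the 4 WT libraries, and both are among those 3 highest. The difference there was 1.35 ± 0.28 log2, with an unadjusted edgeR p of 0.00107 and an adjusted p of 0.606. The lower part of the early disease range thus came from the other dates, in 4 of whose 5 libraries Csf1 was at or below 30.0 CPM.

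Apoe, the lipid carrier that microglia of many disease models raise, was at 62.9 to 522 CPM in early disease, with a median of 344, and at 204, 1112, 342 and 410 CPM in WT. The difference was -0.66 ± 0.53 log2 (95% interval -1.75 to 0.43), and -0.04 without Control11. Both ends of the combined range came from single libraries: EarlyDisease5 and 6, both males of date code 1102, had 62.9 and 93.2 CPM, and Control11 had 1112 CPM. Spp1, which encodes osteopontin, was at 8.17 to 153 CPM in early disease, with a median of 49.5, and at 95.1, 99.3, 68.0 and 66.3 CPM in WT, a difference of -0.42 (95% interval -1.53 to 0.69). Axl, a receptor kinase for phosphatidylserine-bound ligands on dying cells, differed by -0.13 log2 (95% interval -0.85 to 0.58). Spread between mice was wide for these 3 genes, and a 2-fold fall of Spp1 or of Apoe lay within the interval. Cd68, a lysosomal membrane glycoprotein of phagocytes, had 912 to 1289 CPM in early disease, with a median of 1026, and 1232, 1917, 942 and 1310 CPM in WT, a difference of -0.35 ± 0.16 (edgeR adjusted p = 1), and -0.12 without Control11.

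Set against late disease in the same fit, which compares rNLS8 mice at the later stage with the same 7 early disease libraries, 9 of the disease-associated genes were called, all higher in late disease. That contrast called 73 of 16151 genes (0.452%), 62 of them higher (0.384%) and 11 lower (0.0681%). Called were Apoe (3.34 ± 0.51 log2, adjusted p = 0.00329), Spp1 (3.01 ± 0.50, adjusted p = 0.00512), Axl (1.93 ± 0.31, adjusted p = 0.0048), Csf1 (1.43 ± 0.26, adjusted p = 0.00781), Cst7, Clec7a, Cd63, Ctsb and Fth1. Cst7, which encodes a cathepsin inhibitor, was at 24.6 to 77.0 CPM in late disease and at 2.07 to 17.6 CPM in early disease, with WT libraries at 16.6, 20.6, 6.41 and 3.25 CPM. For Clec7a, the beta-glucan receptor dectin-1, the late minus early difference was 1.87 log2 (adjusted p = 0.0405) and the early minus WT difference was -0.33 (95% interval -1.34 to 0.67). Ctsb, which encodes the lysosomal protease cathepsin B, and Fth1, the ferritin heavy chain, were measured more tightly: early disease differed from WT by -0.01 (95% interval -0.30 to 0.28) and -0.08 log2 (95% interval -0.45 to 0.30), and late disease from early disease by 0.57 and 0.67 log2. Both contrasts use the early disease libraries, so their values are not independent, and late disease mice were also older and longer off doxycycline.

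**Figure D1:**
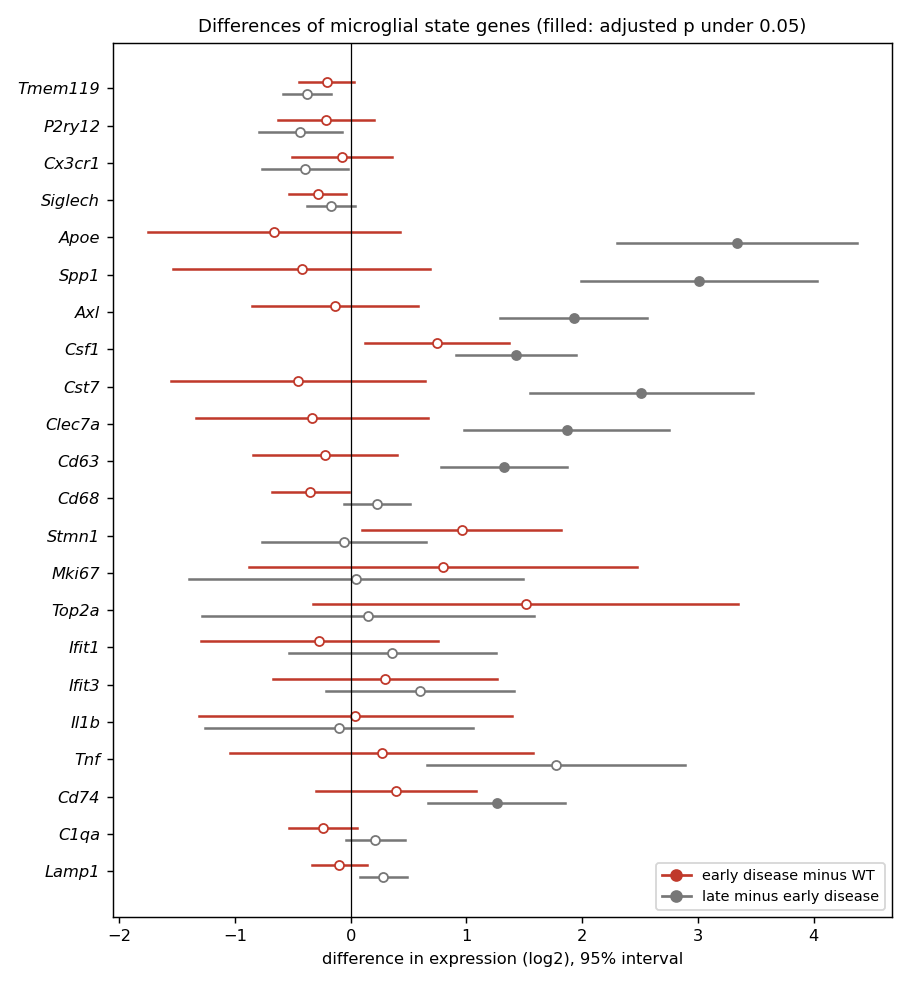
Log2 differences with 95% intervals for 22 genes of microglial state, early disease minus WT in red above late minus early disease in grey; filled points passed an adjusted p under 0.05. Apoe, Spp1, Axl, Csf1, Cst7, Clec7a, Cd63 and Cd74 are filled for late minus early disease, and no early disease minus WT point is filled.

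Cell cycle genes had the median farthest from 0 among the 21 lists of microglial programmes. They were also the least tightly measured of these lists, with a median SE of 0.70 log2 beside 0.30 over all genes tested. The intervals of 9 of the 40 lay within 1 log2 unit of 0. All 40 listed genes of DNA replication and mitosis were tested, and 0 were called. Of the 40, 35 lay above WT and 5 below, beside 8193 of all 16151 genes above. The median difference was 0.58 log2, beside 0.00 over all genes tested. Unadjusted p-values under 0.05 on the higher side came from 3 of the 40, beside 1.62% of all genes. They were Stmn1, a microtubule destabilizer, and Mcm6 and Aurkb, which are named here after their values were seen. Stmn1 had 32.0, 25.9, 41.4, 25.3, 39.1, 14.3 and 24.6 CPM in EarlyDisease1, 3, 4, 5, 6, 7 and 8, and 11.7, 22.6, 16.5 and 10.8 CPM in Controls 10 to 13. All early disease libraries except EarlyDisease7 lay above all WT libraries, and the difference was 0.96 ± 0.42 log2 (95% interval 0.10 to 1.82; edgeR adjusted p = 1). Mcm6, a subunit of the replicative helicase, had 24.8, 43.8, 32.7, 20.0, 26, 23.8 and 25.8 CPM in early disease and 19.2, 20.1, 19.6 and 19.7 CPM in WT. EarlyDisease5 alone of the early disease libraries lay within the WT range for Mcm6.

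The early disease libraries were not alike in this programme. Summed over the 40 genes, EarlyDisease1, 3 and 4 had 411, 564 and 507 CPM and EarlyDisease5, 6, 7 and 8 had 309, 388, 329 and 309 CPM, against 298, 383, 325 and 317 CPM in Controls 10 to 13. Top2a, the topoisomerase of dividing cells, was at 9.15, 15.7 and 13.2 CPM in EarlyDisease1, 3 and 4, at 3.61, 3.78, 0.752 and 0.605 CPM in EarlyDisease5, 6, 7 and 8, and at 1.80, 4.28, 2.64 and 0.563 CPM in WT. Only EarlyDisease1, 3 and 4 exceeded all WT values, and the group difference was 1.51 ± 0.90 log2 (edgeR adjusted p = 1). Mki67, which encodes the proliferation antigen Ki-67, was at 5.32, 8.82 and 8.47 CPM in those 3 libraries, at 1.11 to 3.36 CPM in the other 4, and at 0.841, 4.34, 3.99 and 1.94 CPM in WT. Within date code 1019 the median of the list was 1.05 log2, beside 0.0075 over all genes. Of the 40 members 39 were above 0, and 11 had an unadjusted p under 0.05. Over all genes of that fit, 299 of 15804 had such a p. That fit rests on EarlyDisease1 and 3, which are 2 of the 3 libraries with high cell cycle sums. Without EarlyDisease3 the median of the list over all dates was 0.27 log2, and without EarlyDisease4 it was 0.44. In bulk RNA a larger share of dividing cells and more of this RNA per cell cannot be told apart. The same 3 libraries also had the 3 highest Csf1 values of the 11.

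**Figure D2:**
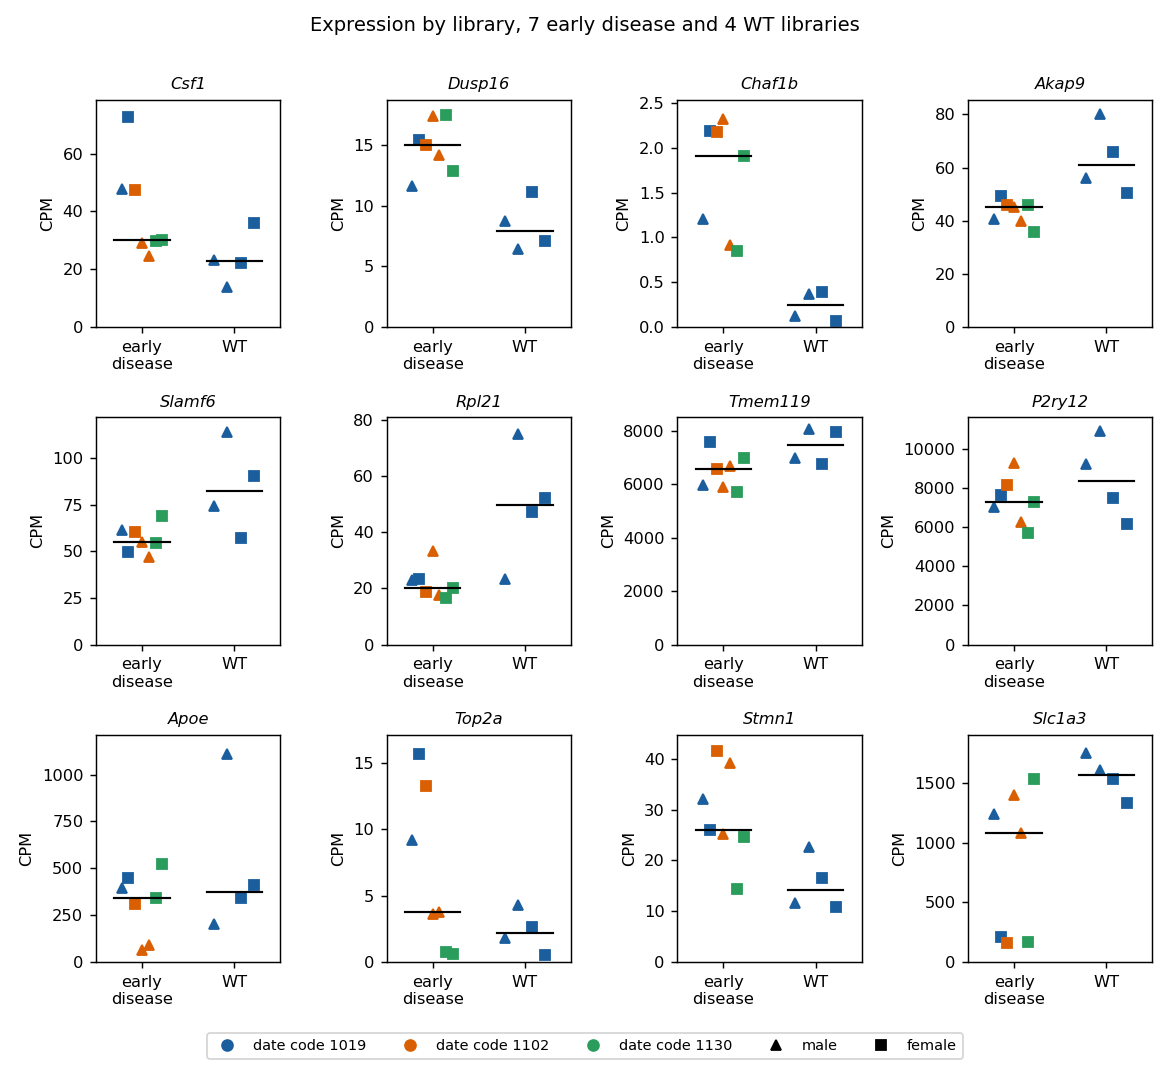
CPM of 12 genes in each library, early disease to the left of WT; colour gives the date code, triangles are males, squares females, and the bar is the group median. Dusp16, Chaf1b and Akap9, picked for their small p, do not overlap between groups, while Csf1, Top2a and Slc1a3 divide the early disease libraries among themselves.

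No gene of the other inflammatory programmes was called. Of 30 interferon response genes tested, 0 were called and 0 had an unadjusted p under 0.05, and the median was 0.21. It was 0.00 without EarlyDisease3, 0.53 within date code 1019, 0.63 with the date code as a term over all 35 libraries, and -0.17 in males alone. Ifit3, an interferon-induced protein with tetratricopeptide repeats, had 26.5, 85.2, 36.2, 9.61, 25.3, 36.2 and 9.63 CPM in the early disease libraries in the order above and 39.4, 21.4, 20.6 and 15.8 CPM in WT. EarlyDisease3 was the highest of the 11 for Ifit1, Ifit2 and Ifit3, and it also had the highest interferon sum. Of 24 genes for inflammatory cytokines and the NF-kB pathway, 0 were called, 0 had an unadjusted p under 0.05, and the median was 0.01. Il1b, the interleukin-1 beta precursor, was at 1.75 to 16.1 CPM in early disease, with a median of 5.28, and at 1.98, 11.7, 5.68 and 5.01 CPM in WT, a difference of 0.04 with a wide 95% interval, -1.31 to 1.39. Tnf differed by 0.27 (95% interval -1.04 to 1.58) and Ccl3, a macrophage chemokine, by 0.66 (95% interval -0.30 to 1.63). EarlyDisease4 had the highest Il1b, Tnf and Ccl3 of the 11 libraries, at 16.1, 10.2 and 82.8 CPM.

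Antigen presentation genes had a median of -0.09 log2, with 0 of 22 called and 0 at an unadjusted p under 0.05. Cd74, the invariant chain of MHC class II, had 117, 151, 265, 61.5, 58.5, 61.0 and 55.1 CPM in early disease and 56.6, 91.4, 96.2 and 77.5 CPM in WT. EarlyDisease1, 3 and 4 lay above all WT libraries and the other 4 early disease libraries at or near the lower end of WT, with a group difference of 0.39 (95% interval -0.30 to 1.08). Complement genes had a median of -0.11 over 14 genes, with 0 called, and of 0.08 without Control11. C1qa, a chain of the complement starter C1q, stood at 3649 to 4563 CPM in early disease, with a median of 3996, and at 4242, 5902, 3478 and 5586 CPM in WT, a difference of -0.24 (95% interval -0.53 to 0.05). C1qb and C1qc differed by -0.08 and -0.14 log2.

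Lysosomal genes were tightly measured, with 27 of 32 intervals within 1 log2 unit of 0, 0 called and a median of -0.09, which was 0.03 without Control11. Lamp1, a main protein of the lysosomal membrane, was at 1840 to 2232 CPM in early disease, with a median of 2104, and at 2235, 2927, 1554 and 2100 CPM in WT, a difference of -0.10 (95% interval -0.34 to 0.14). Cholesterol synthesis genes had a median of 0.05 over 23 genes, with 0 called. Dhcr7, which makes cholesterol from its direct precursor, had 38.4, 49.0, 43.9, 39.3, 49.4, 48.4 and 32.3 CPM in early disease and 36.5, 27.3, 32.7 and 38.5 CPM in WT, a difference of 0.34 ± 0.14 (edgeR adjusted p = 1). For lipid efflux and storage the median was 0.01 over 18 genes. Abca1, a cholesterol exporter, differed by 0.02 (95% interval -0.53 to 0.58), and Soat1, which esterifies cholesterol for storage, was at 127 ± 29.7 CPM in early disease and 162 ± 15.2 CPM in WT (SD, n = 7 and 4), a difference of -0.36 ± 0.17.

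TGF-beta pathway genes, which hold the homeostatic state, had a median of 0.12 over 14 genes with 0 called. Tgfbr1, the type I receptor, was at 2393 to 3093 CPM in early disease, with a median of 2731, and at 2683, 1314, 2591 and 2605 CPM in WT. Control11 had the lowest values of Tgfbr1, Tgfbr2 and Tgfb1 among the 11 libraries, and the other 3 WT libraries lay inside the early disease range for all 3 genes. Unfolded protein response genes had a median of -0.05 over 18 genes, with the endoplasmic reticulum chaperone Hspa5 at -0.19 (95% interval -0.56 to 0.18). For p53 and apoptosis genes the median was 0.04 over 14 genes, with Cdkn1a, the p53 target that stops the cell cycle, at 0.46 (95% interval -0.36 to 1.28). Genes linked to amyotrophic lateral sclerosis and frontotemporal dementia had a median of -0.05 over 18 genes with 0 called, and 16 of their 18 intervals lay within 1 log2 unit. Sod1 differed by -0.20 log2 (95% interval -0.61 to 0.21).

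Immediate early and stress genes had a median of 0.02 over 26 genes, with Jun at 0.12 (95% interval -0.23 to 0.47). Clock genes had a median of 0.00 over 17 genes, and Arntl, the core activator of the clock, differed by -0.23 (95% interval -0.69 to 0.23). Glucocorticoid targets had a median of -0.08 over 12 genes, and of 0.09 without Control13. Among them Fkbp5, a co-chaperone of the glucocorticoid receptor, had 106, 89.6, 83.4, 88.6, 448, 122 and 102 CPM in early disease and 93.7, 66.0, 121 and 176 CPM in WT. EarlyDisease6 alone stood far above the rest. Mitochondrially encoded genes had a median of -0.21 over 13 genes, and of -0.10 within date code 1019 and 0.01 without Control11, with mt-Nd2 at -0.22 and mt-Nd3, another subunit of respiratory complex I, at 0.70 (95% interval 0.12 to 1.27; edgeR adjusted p = 1). The remaining lists, growth factors and glycolysis with hypoxia, had medians of 0.01 and 0.04 over 10 and 20 genes and 0 called.

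**Figure D3:**
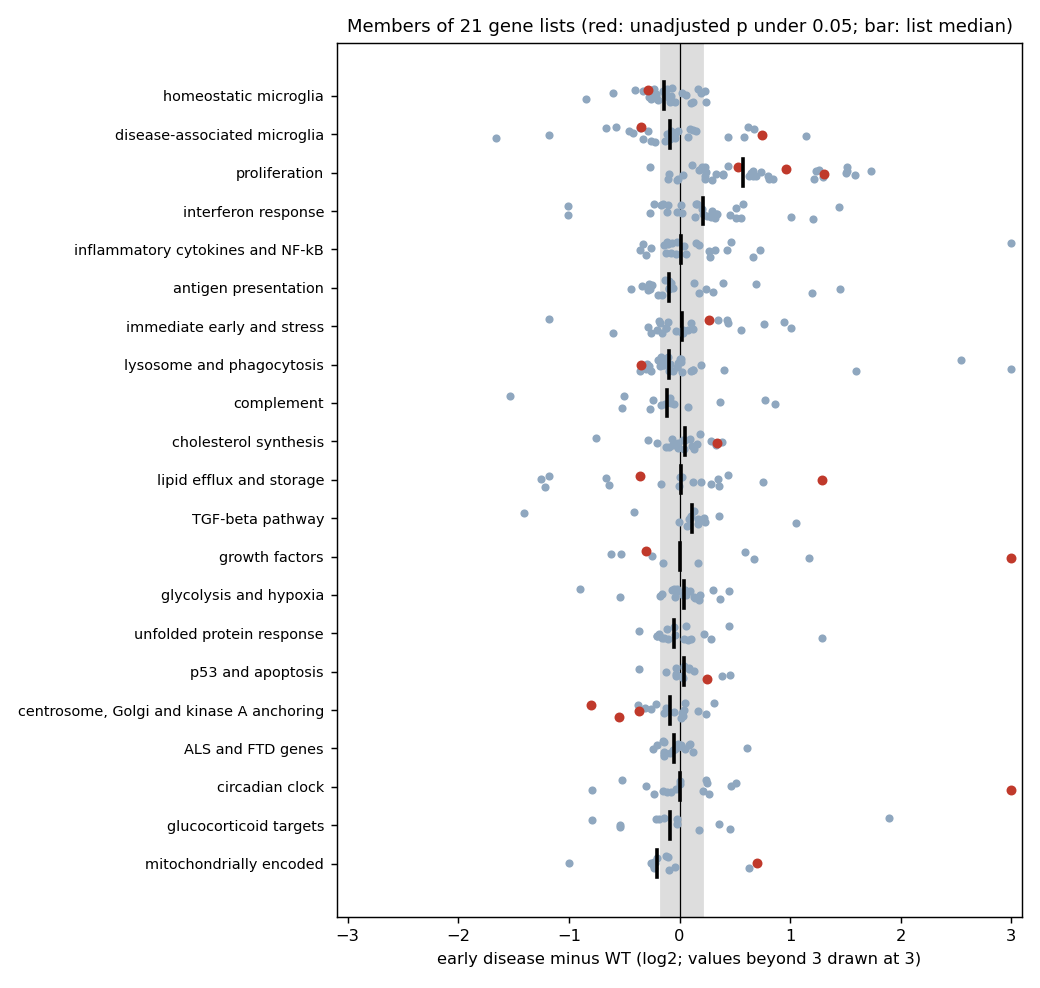
Log2 difference of early disease minus WT for the tested members of 21 gene lists, one dot per gene, red for an unadjusted p under 0.05, with the list median as a bar and the interquartile range of all genes tested as a grey band. The proliferation median of 0.58 lies outside the band and the interferon response median of 0.21 lies at its edge.

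Some single genes came closest to the threshold, and all had an edgeR adjusted p of 1. They were picked for their small p in these data, so a lack of overlap between their groups is no separate support. Dusp16 encodes a phosphatase that inactivates JNK and p38 kinases (mm10 chr6:134715468-134792625, minus strand). It had 11.7, 15.4, 15.1, 17.4, 14.2, 17.5 and 12.9 CPM in EarlyDisease1, 3, 4, 5, 6, 7 and 8, and 8.71, 6.44, 11.1 and 7.07 CPM in Controls 10 to 13. The groups did not overlap, with a difference of 0.83 ± 0.22 log2 (edgeR adjusted p = 1), and within date code 1019 it was 0.70 ± 0.31. Chaf1b encodes a subunit of the chromatin assembly factor CAF-1, which places histones on newly made DNA (mm10 chr16:93883901-93906115, plus strand). It had 1.21, 2.19, 2.18, 2.33, 0.916, 0.852 and 1.92 CPM in early disease, or 25, 40, 37, 40, 15, 17 and 38 counts, and 0.120, 0.372, 0.393 and 0.0626 CPM in WT, or 2, 6, 7 and 1 counts. Again the groups did not overlap, at a difference of 2.79 ± 0.76 log2 in edgeR and an adjusted p of 0.0269 in DESeq2, and within date code 1019 it was 2.78 ± 0.99 log2 in edgeR. Chaf1b had similar levels in EarlyDisease3 and 4 and in EarlyDisease5 and 8, although the cell cycle sums of the last 2 lay within the WT range.

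Akap9, which encodes a large scaffold that ties protein kinase A to the centrosome and Golgi, was the lower counterpart (mm10 chr5:3928054-4081310, plus strand). It had 40.5, 49.1, 45.9, 45.3, 39.9, 46.0 and 35.8 CPM in early disease and 56.0, 80.0, 65.8 and 50.5 CPM in WT. Every early disease library lay below every WT library, with a difference of -0.55 ± 0.15 log2 (edgeR adjusted p = 1) and of -0.48 ± 0.24 within date code 1019. On the TPM scale its level was 32.9 ± 3.25 in early disease and 45.2 ± 7.53 in WT (SD, n = 7 and 4). Of 18 genes for centrosome, Golgi and kinase A anchoring, 0 were called. The median was -0.08, or 0.09 without Control12 and 0.15 in males alone. On the lower side 3 of the 18 had an unadjusted p under 0.05, beside 1.7% of all genes. Akap9, picked for its small p, is among these 3, so the count is no separate support for it. The other 2, named after their values were seen, were Trip11, a Golgi coiled-coil protein, at -0.36 ± 0.15, and Cep290, a protein of the ciliary base, at -0.80 ± 0.37.

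Slamf6, a homophilic receptor of immune cells, had 61.6, 49.7, 60.2, 55.1, 46.8, 54.5 and 69.0 CPM in early disease and 74.1, 114, 56.9 and 90.5 CPM in WT. Control12 lay among the early disease values, and the difference was -0.58 ± 0.15 log2 (edgeR adjusted p = 1), or -0.37 without Control11. Mgat5, a Golgi enzyme that branches N-glycans, differed by -0.72 ± 0.20, and Fer, a tyrosine kinase, by -0.60 ± 0.17 log2. On the higher side Limd1, an LIM domain protein of cell junctions and P-bodies, differed by 0.57 ± 0.18, and Abcb10, a transporter of the inner mitochondrial membrane, by 0.47 ± 0.15, which was 0.24 ± 0.24 within date code 1019. Slc19a2, a thiamine transporter, differed by 0.91 ± 0.29. Stx11, a syntaxin of immune cells, had 0 counts in all 4 WT libraries and 0.110 to 0.752 CPM in early disease.

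A pair of the smallest p-values belongs to genes whose reads cannot be assigned with certainty. Rn7s1, a copy of the 7SL RNA of the signal recognition particle, had 18.6, 11.9, 10.7, 21.7, 19.9, 12.4 and 6.65 CPM in early disease and 0, 1.73, 7.25 and 1.94 CPM in WT. Only EarlyDisease8 overlapped with WT, through Control12, at a difference of 2.50 ± 0.57 log2 in edgeR (adjusted p = 1) and an adjusted p of 0.00158 in DESeq2. Rpl21, a ribosomal protein gene with many processed pseudogenes, had 23, 23.4, 18.7, 33.1, 17.7, 16.4 and 20.1 CPM in early disease and 23.3, 74.8, 47.2 and 52.2 CPM in WT, a difference of -1.18 ± 0.28 log2 (edgeR adjusted p = 1). Control10 lay inside the early disease range for Rpl21. Where copies are nearly the same in sequence, RSEM estimates how their common reads divide, and such values follow that division.

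Genes of blood cells differed between single libraries. Of 5 tested erythroid genes, all 5 had an unadjusted p under 0.05 and were lower in early disease, with a median of -7.84 log2. Hbb-bs, an adult beta globin, was at 0, 0, 0.118, 2.04, 0, 0 and 0.252 CPM in early disease and at 0, 0, 36 and 45.2 CPM in WT. The 5-gene difference came from Controls 12 and 13, the female WT libraries, whose erythroid sums were 107 and 136 CPM, against 0 to 6.70 CPM in the other 9 libraries. Without these 2 libraries the median of the list was no longer negative, at 6.06 log2 over counts that were 0 in most of the remaining libraries. Neutrophil granule genes were divided in another way. S100a8, a calcium-binding protein of neutrophils, was at 73.6, 21 and 11.4 CPM in EarlyDisease4, 7 and 8 and at 36.9 and 16.1 CPM in Controls 12 and 13, and at or below 0.124 CPM in the other 6 libraries. All 5 high libraries came from females, EarlyDisease3 was the 1 female library without it, and S100a9 and Ngp had the same 5 high libraries. Of 13 tested neutrophil genes 0 were called and 0 had an unadjusted p under 0.05. The globin copies Hba-a1 and Hba-a2, and Hbb-bs and Hbb-bt, are near-identical pairs, so their split by RSEM is uncertain.

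Monocyte genes had a median of -0.10 log2 over 11 genes with 0 called, and of 0.36 without Control13, with Ly6c2, which encodes a surface protein of inflammatory monocytes, at 0 in 4 early disease and 2 WT libraries and at most 1.82 CPM elsewhere. Border macrophage genes had a median of 1.58 log2 over 12 genes, with 0 called and 0 at an unadjusted p under 0.05. Of the 12, 10 lay above WT, beside 8193 of 16151 over all genes. The summed level of the 12 was 225 to 388 CPM in early disease and 191 to 378 CPM in WT, with overlap. Most of it came from Stab1, a scavenger receptor, at a mean of 226 CPM in early disease and 186 CPM in WT, and Ms4a6b, at 65.7 and 75.9 CPM, both named after their values were seen. The other 10 members had means of at most 3.36 CPM in both groups. Mrc1, the mannose receptor, had 2.23, 0.931, 6.82, 2.33, 2.26, 4.26 and 4.69 CPM in early disease and 0.661, 0.248, 1.74 and 1.94 CPM in WT, a difference of 1.6 ± 1.03 log2. All early disease libraries except EarlyDisease3 lay above WT, and the median of the list was 0.79 log2 within date code 1019. Their part in other differences was not tested.

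**Figure D4:**
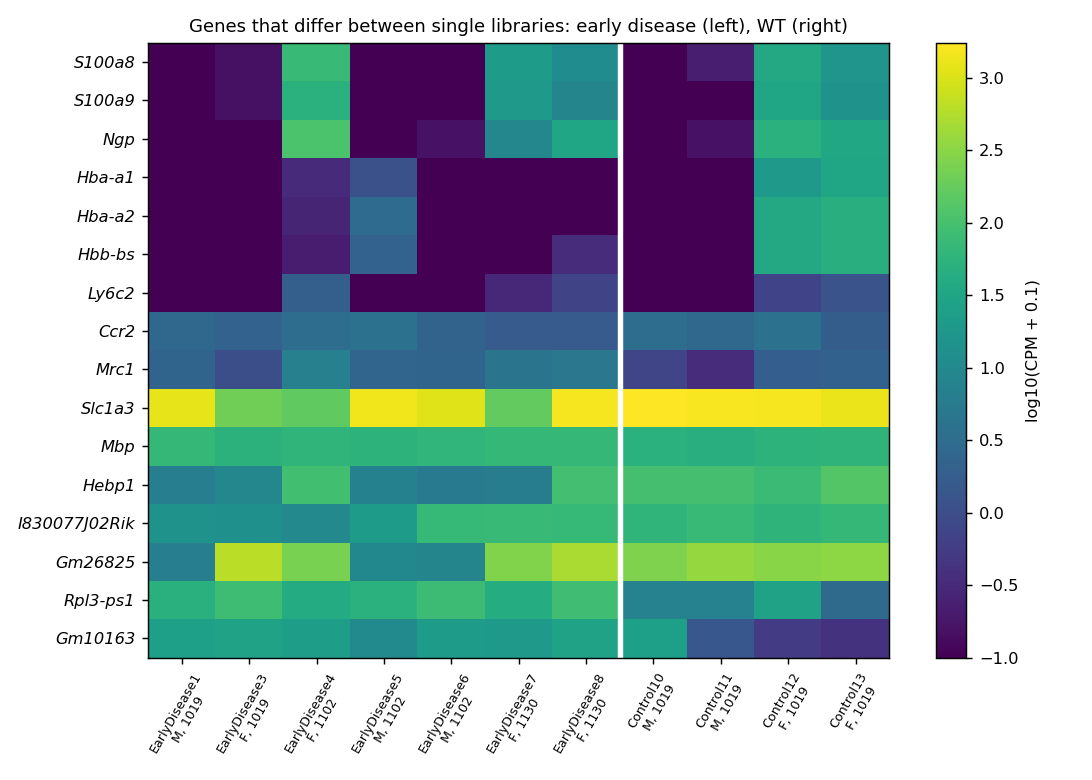
Log10 of CPM plus 0.1 for 16 genes in each library, 7 early disease libraries left of the white line and 4 WT libraries right of it, with sex and date code below each name. S100a8, S100a9 and Ngp are bright in EarlyDisease4, 7 and 8 and Controls 12 and 13, globin genes in Controls 12 and 13, and Hebp1, Gm26825 and Slc1a3 take 2 levels within early disease.

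Several genes took 2 separate levels among the early disease mice while WT libraries stayed at one of them. Slc1a3, which encodes the glutamate transporter GLAST, had 212, 158 and 168 CPM in EarlyDisease3, 4 and 7 and 1237, 1397, 1078 and 1530 CPM in EarlyDisease1, 5, 6 and 8, beside 1747, 1603, 1534 and 1329 CPM in WT. No library lay between 212 and 1078 CPM, and the group difference was -0.94 ± 0.64 log2 (edgeR adjusted p = 1). Gfap and Aqp4, defining genes of astrocytes, were at 0.15 to 1.37 CPM and 0 to 1.16 CPM in early disease and at 0 to 1.2 CPM and 0 to 0.675 CPM in WT. Hebp1, a heme-binding protein (mm10 chr6:135137522-135198022, minus strand), was at 5.25 to 9.09 CPM in EarlyDisease1, 3, 5, 6 and 7, at 90.7 and 95.1 CPM in EarlyDisease4 and 8, and at 96.9, 97.6, 78.3 and 127 CPM in WT. Dusp16 lies nearby on the same chromosome, and its levels did not divide the early disease libraries in this way. The pseudogene Gm10163 was divided within WT instead, at 24.6 CPM in Control10 and 0.313 to 1.30 CPM in Controls 11 to 13. In early disease Gm10163 was at 10.4 to 28.15 CPM. Hebp1 and the others of this kind outside the gene lists were named after their values were seen, and allele differences between mice of the mixed background were not tested.

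Sexes were compared in 1 further test, since each group held both. An interaction of sex and group was called for 2 of 15989 genes (0.0125%) in edgeR, Gm26825 and Gm15459. Gm26825 had 6.39, 9.43 and 8.55 CPM in the 3 male early disease libraries, 630, 244, 270 and 508 CPM in the 4 female ones, 268 and 370 CPM in male WT and 313 and 332 CPM in female WT. Gm15459 covers the same stretch on the other strand (mm10 chr5:5781615-5783555 within chr5:5781530-5783636), and these kits do not mark the strand, so the 2 genes count as 1 signal. The 3 low libraries are all the male early disease libraries and no others.

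Against rNLS8 mice kept on doxycycline, all 6 of which have the date code 0810, the fit called 590 genes in early disease (3.65%) and 78 genes in WT mice 2 weeks off doxycycline (0.483%). The 2 contrasts share the mice on doxycycline, so only the values of each are given. Apoe was at 2.57 log2 in early disease minus rNLS8 on doxycycline (adjusted p = 0.00726) and at 3.23 log2 in WT minus rNLS8 on doxycycline (adjusted p = 0.00859). Its level was 26.2 to 69.1 CPM in the mice on doxycycline. Csf1 was at 1.5 log2 in early disease minus rNLS8 on doxycycline (adjusted p = 0.00509) and at 0.76 in WT minus rNLS8 on doxycycline (adjusted p = 0.259), with a median of 12.3 CPM in the mice on doxycycline. For Akap9 these values were -0.68 (adjusted p = 0.0055) and -0.14 (adjusted p = 0.744), and for Tmem119 -0.42 (adjusted p = 0.023) and -0.21 (adjusted p = 0.442). Siglech, the other homeostatic gene called in early disease against rNLS8 on doxycycline, went the opposite way. Its values were 0.39 (edgeR adjusted p = 0.0378) and 0.67 (edgeR adjusted p = 0.0135). A gene past the threshold in one contrast and not in the other is not thereby different between early disease and WT, whose direct comparison called none. Date, diet and disease cannot be told apart in early disease minus rNLS8 on doxycycline. In WT minus rNLS8 on doxycycline, date, diet and genotype cannot be told apart.

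Taken over the 500 most variable genes, the groups overlapped on the first 2 principal components and not on the third. The first principal component held 20.5% of the variance and was led by Xist, Ngp, Ddx3y and S100a8, with all males on one side together with EarlyDisease3. The second held 18.9% and separated libraries within each group: Control13, Control11 and EarlyDisease8 lay at one end and Control10, EarlyDisease4, Control12 and EarlyDisease7 at the other. The third held 11.3%, with early disease libraries at -2.85 to 27.8 and WT libraries at -22.0 to -11.5, and Atp8a2, Gm10020, Spint1 and Rpl15-ps3 carried the most weight on it. Genes of high weight also included the pseudogene Gm10163 and the globin genes Hba-a2 and Hbb-bs, the latter 2 high only in Controls 12 and 13. EarlyDisease1 and 3, which share the date code of the WT libraries, were at 5.39 and 27.8.

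**Figure D5:**
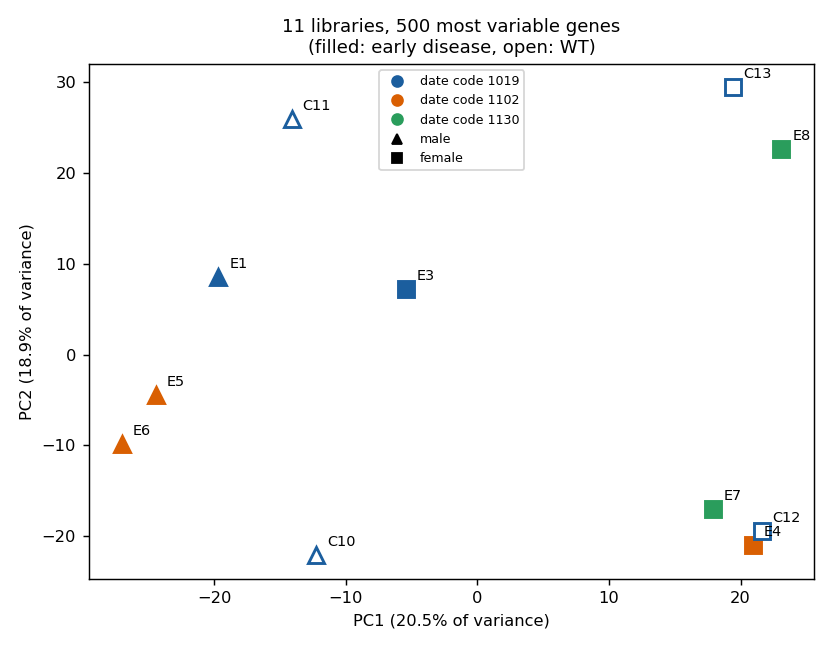
First 2 principal components of log2 CPM over the 500 most variable genes, filled symbols for early disease (E) and open ones for WT (C), with colour for the date code and shape for sex. Early disease and WT symbols are mixed on both axes, and males lie left of the females, with EarlyDisease3 between them.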

How the data were processed

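RNA of sorted microglia was sequenced with paired ends from full-length cDNA libraries that do not mark the strand, per the labels' protocols. The authors deposited expected counts per gene for 35 libraries, estimated by RSEM on mm10 per the submitters' processing notes, which also name DESeq2, with no versions stated. They also deposited TPM values, and a design table with a count of alignments, sex and date code per library. Of the expected counts, 84.7% were whole within 1e-06, and all were rounded. Symbols matched for 45143 of 45706 identifiers.

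Differences were tested with edgeR 4.0.16 (R 4.3.3): quasi-likelihood F test, TMM normalization, the package filter on low counts by group (16151 genes kept), and group and labelled sex as terms over all 35 libraries, which share one estimate of the spread. Calls used a Benjamini-Hochberg adjusted p under 0.05. Standard errors derive from F. CPM is scaled to the TMM library size. DESeq2 1.42.0 and limma 3.58.1 on log2(TPM + 1) and log2(TPM + 0.1) were alternatives, limma on genes with at least 1 TPM in 4 libraries. The group of 1 library in the filter sets a low minimum, so a filter asking for 4 libraries was added after the data were seen. Library measures were compared by exact permutation. The procedure was tested on simulated data.

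The libraries compared and the gene lists were chosen with earlier results of these data known. Named genes are the 10 with the smallest p in each direction, the first 3 genes of each list, the member with the smallest p in each direction, Tardbp, Itgam, Ptprc, Xist and Ddx3y; a selection of these is printed, and other genes are said to be named after their values were seen, as are the 9 late disease genes and those called by an alternative. Nothing in the labels says more on the mice than 1 per library, so p-values measure the spread between these libraries. No molecular identifiers are named, and precision refers to fragments. Replicate libraries differed by far more than counting noise.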

Additional observations from a re-analysis of the deposited data

Results flagged for a closer look

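In groups of 4 to 10 libraries, a library that stood apart from the rest of its group by Dixon's test at the 95% level was marked among 98 named genes. Each gene was screened in both groups, and chance marks about 1 group in 20. The marks listed here are near that rate. In WT libraries, Control11 was lowest for Mgat5 (35.9 CPM), Tgfb1 (99.6 CPM) and Tgfbr1 (1314 CPM), Control12 for Lamp2 (944 CPM) and Control10 for Cdkn1a (7.69 CPM). In early disease libraries, EarlyDisease6 was highest for Fkbp5 (448 CPM). EarlyDisease5 was highest for the erythroid genes Hbb-bt (0.291 CPM), Hbb-bs (2.04 CPM), Hba-a2 (2.91 CPM) and Alas2 (0.408 CPM), all far below Controls 12 and 13, and lowest for the pseudogene Gm10163 (10.4 CPM).

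The difference between early disease and WT differed between the sexes for Gm26825, with an interaction of -5.64 log2 (males minus females; edgeR adjusted p = 0.00236), and for Gm15459 on the opposite strand of the same stretch, with -3.87 log2 (edgeR adjusted p = 0.00938). The low level was in 3 of 3 male early disease libraries and in 0 of the other 8.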

How the results depend on the processing

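The count of called genes, 0 in edgeR, stayed 0 in 21 of 28 alternatives and was 5 with DESeq2, 5 within date code 1019 alone, 4 in males alone, 5 in females alone and 2 with limma on log2(TPM + 1). Within date code 1019 the 5 were Hebp1, I830077J02Rik, Ngp, Hba-a2 and Hbb-bs, all lower in early disease. Males gave Gm26825, Hebp1 and Gm15459 (lower) and Rpl3-ps1 (higher), females Gm10163 (higher) and Hba-a1, Hba-a2, Hbb-bs and Hbb-bt (lower), and limma Rn7s1 and Gm10163. Leaving out 1 library at a time gave 0 to 1 genes: Gm10163 without Control10 and Rn7s1 without Control12. The cause was not tested. Genes with an unadjusted p under 0.05 numbered 379 to 671 in those 11 fits, 960 without a filter on low counts and 1036 without Controls 12 and 13. The unadjusted count was 766 in a fit of the 11 libraries alone and 305 with at least 1 CPM in 4 libraries.

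Of 98 named genes followed through the alternatives, 44 kept their sign in every alternative, among them Csf1, Akap9, Dusp16, Chaf1b, Slamf6, Rpl21 and Tmem119, and 54 changed it in at least 1, none past the threshold. The proliferation median kept its sign in 28 of 28 alternatives (0.20 to 1.05 log2), and the homeostatic median in 27 of 28 (-0.26 to 0.02). The medians of the other lists of microglial programmes also changed sign in at least 1 of the 28. The Csf1 difference ran from 0.58 without EarlyDisease3 to 1.35 within date code 1019, with adjusted p of 0.239 to 1. No paired analysis was possible because the 2 groups share no replicate number in the labels. With 4 WT mice of 1 date code, depth of 15.4 to 20.0 M counts limits genes under 10 CPM most, as the intervals above show.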
